A study of Homo sapiens with 11 samples.

Results

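The expression of 10 genes for inflammatory signals was followed in Caki-1-SR cells, a sunitinib-resistant derivative of the Caki-1 clear cell renal cell carcinoma (ccRCC) line. The genes were the chemokine genes CXCL1, CXCL2, CXCL3, CXCL5, CXCL8, CXCL16, CCL2 and CCL20, the cytokine gene TNF and the adhesion molecule gene ICAM1. They were chosen as a group with earlier results of these data known and taken by their symbols, and all 10 were among the 26485 genes of the count tables. RNA sequencing was performed on 11 libraries in 4 groups. ODC cells had received an optimized combination of Rapta-C (2 µM), erlotinib (1 µM), metformin (1 µM) and parthenolide (5 µM), and CTRL cells had not. The 24 h exposure was covered by 3 CTRL and 3 ODC libraries, and the 2 h exposure by 2 CTRL and 3 ODC libraries. Every group was derived from cells grown with sunitinib in the medium to hold the resistant state, and the cells treated for 24 h are described as a single clone of the line. Libraries are named here by the number in their title, so the 24 h CTRL libraries were 1, 3 and 5 and the 24 h ODC libraries 2, 4 and 6. At 2 h, libraries 1 and 2 were CTRL and libraries 3, 4 and 5 were ODC. The question was whether the combination altered these transcripts early or late, and how far single libraries of a group departed from each other.

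Chemokines are small secreted proteins that guide leukocytes along a gradient through receptors on the leukocyte surface. CXCL1, CXCL2, CXCL3, CXCL5 and CXCL8 share a short Glu-Leu-Arg motif before the CXC cysteines and attract neutrophils through CXCR2, and CXCL8 also through CXCR1. TNF acts through its receptors on the transcription factor NF-kB, which in turn binds the promoters of many chemokine genes, of ICAM1 and of TNF itself. Parthenolide is a plant lactone known to act on the NF-kB pathway, erlotinib inhibits the EGFR kinase, metformin is a biguanide used in diabetes, and Rapta-C is a ruthenium-arene compound.

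The 5 neutrophil chemokine genes lie together on the long arm of chromosome 4 (hg38, GENCODE annotation). CXCL8 spans chr4:73740519-73743716 and CXCL1 chr4:73869393-73871308 on the plus strand. CXCL5 spans chr4:73995642-73998677, CXCL3 chr4:74036589-74038807 and CXCL2 chr4:74097040-74099196 on the minus strand. CXCL16 and CCL2 are on chromosome 17 at chr17:4733533-4739928 (minus) and chr17:34255274-34257208 (plus). CCL20 is at chr2:227805739-227817564, TNF at chr6:31575565-31578336 and ICAM1 at chr19:10271093-10286615, all on the plus strand. The transcripts of CXCL1 and CXCL2 were 83.4% identical over their alignment, and those of CXCL1 and CXCL3 69.3%. No stretch of 100 bases, the read length, was shared exactly between the transcripts of a member and those of another gene. The counting is not stated to use strand, and genes on the opposite strand overlap CXCL5 (ENSG00000287037), CXCL16 (MED11 and ZMYND15) and ICAM1 (ICAM4-AS1 and LIMASI), so reads of these pairs may not be separable.

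Promoter sequence was in the RefSeq table for 8 of the 10 genes (GRCh38.p14), all but CXCL16 and CCL2. The letters GGNNNTTCC, searched on both strands over the 250 bases before the start, stood in 7 of these 8 promoters and in 17.1% of 35116 promoters of the same length. The longer NF-kB consensus, given here by name alone and overlapping the first motif, was found in 5 of 8 against 5.21% of all. The AP-1 motif TGANTCA was found in CXCL8 alone of the 8, against 6.57% of all. TATAAA was found in CXCL8, CCL20, TNF and ICAM1, against 10.7% of all. The TNF window held no GGNNNTTCC. The stretches of 50 bases around the match are shown for 6 of the 7 genes with a match, so that the letters they share can be seen, on the strand of the gene, with matches on either strand in capitals. They lie at chr4:73869303-73869352 (plus) for CXCL1, chr4:74099235-74099284 (minus) for CXCL2, chr4:73998730-73998779 (minus) for CXCL5 and chr4:73740466-73740515 (plus) for CXCL8. Those of CCL20 and ICAM1 lie at chr2:227813751-227813800 and chr19:10270922-10270971, both on the plus strand.
CXCL1: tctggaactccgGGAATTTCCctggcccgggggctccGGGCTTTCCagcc
CXCL2: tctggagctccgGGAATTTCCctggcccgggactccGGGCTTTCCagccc
CXCL5: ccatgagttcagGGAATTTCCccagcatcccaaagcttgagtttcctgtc
CXCL8: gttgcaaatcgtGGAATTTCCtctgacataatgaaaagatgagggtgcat
CCL20: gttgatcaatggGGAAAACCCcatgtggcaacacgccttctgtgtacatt
ICAM1: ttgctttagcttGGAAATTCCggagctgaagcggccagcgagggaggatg

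The same 9 letters stood in CXCL1, CXCL2, CXCL5 and CXCL8, and CXCL1 and CXCL2 carried a second match closer to the start. CXCL3 had both of these matches at the positions of those in CXCL1, from 78 to 70 and from 53 to 45 bases before the start. Over the whole promoters, CXCL1 and CXCL3 were 81.4% identical, CXCL2 and CXCL3 73.3% and CXCL1 and CXCL2 70.4%. CXCL1 and CXCL8 were 42.7% identical. The CXCL5 window also overlaps an exon of the antisense RNA gene, and the CCL20 window lies inside a longer annotated CCL20 model, outside its exons.

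The libraries held 17785229 to 20882856 counts at 24 h and 25782895 to 31118349 at 2 h, so that 3 counts correspond to between 0.0943 and 0.168 counts per 1000000 counts of the library (CPM). Intervals on counts cover counting error only. The renal epithelial genes PAX8, KRT8, KRT18 and MET were high in every library (lowest 308 CPM), whereas PAX2, CA9 and CA12 reached at most 0.418 CPM. Leukocyte markers summed to 0.439 to 4.62 CPM over 8 genes, with PTPRC at 7 counts or fewer in any library. Endothelial markers summed to 0.0488 to 1.25 CPM over 5 genes, with the highest sum in a 2 h CTRL library. The 5 fibroblast markers summed to 6.83 to 22.0 CPM in CTRL and 20.7 to 49.2 CPM in ODC at 24 h, of which up to 48.9 CPM came from PDGFRB alone. At 2 h they summed to 3.40 to 10.5 CPM in CTRL and 3.96 to 5.80 CPM in ODC. Of the 5 fibroblast markers, 3 had 3 counts or fewer in every 24 h library. The source of the PDGFRB transcripts, and the part of PDGFRB-expressing cells in the differences below, were not tested. Nothing in the labels says that libraries came from separate cultures, so p-values measure only the spread between these libraries.

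CXCL1 and CXCL5 were the chemokine transcripts with the highest levels. Divided by the length of the transcript in kb, the mean 24 h CTRL level was 78.1 CPM per kb ± 71.9 for CXCL1 and 73.4 ± 52.1 for CXCL5 (SD, n = 3), which did not differ beyond their spread. ICAM1 followed at 15.8 ± 6.18 CPM per kb, and CXCL8 (4.83 ± 5.46) and CXCL2 (4.46 ± 0.932) were again within their spread of each other. CXCL3 stood at 1.86 ± 0.731 CPM per kb. TNF, CCL20, CXCL16 and CCL2 were low, with 0.269 ± 0.205, 0.147 ± 0.0735, 0.0459 ± 0.0238 and 0.0252 ± 0.0437 CPM per kb. In ODC cells at 24 h the order of the 10 genes differed from this one only in CXCL2, at 9.69 ± 3.09 CPM per kb, standing above CXCL8, at 7.14 ± 3.52. These also lay within their spread of each other. At 2 h, CXCL5, CXCL1 and ICAM1 held the first 3 places in both groups, with ICAM1 first in ODC cells (44.7 ± 14.1 CPM per kb, n = 3).

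**Figure D1:**
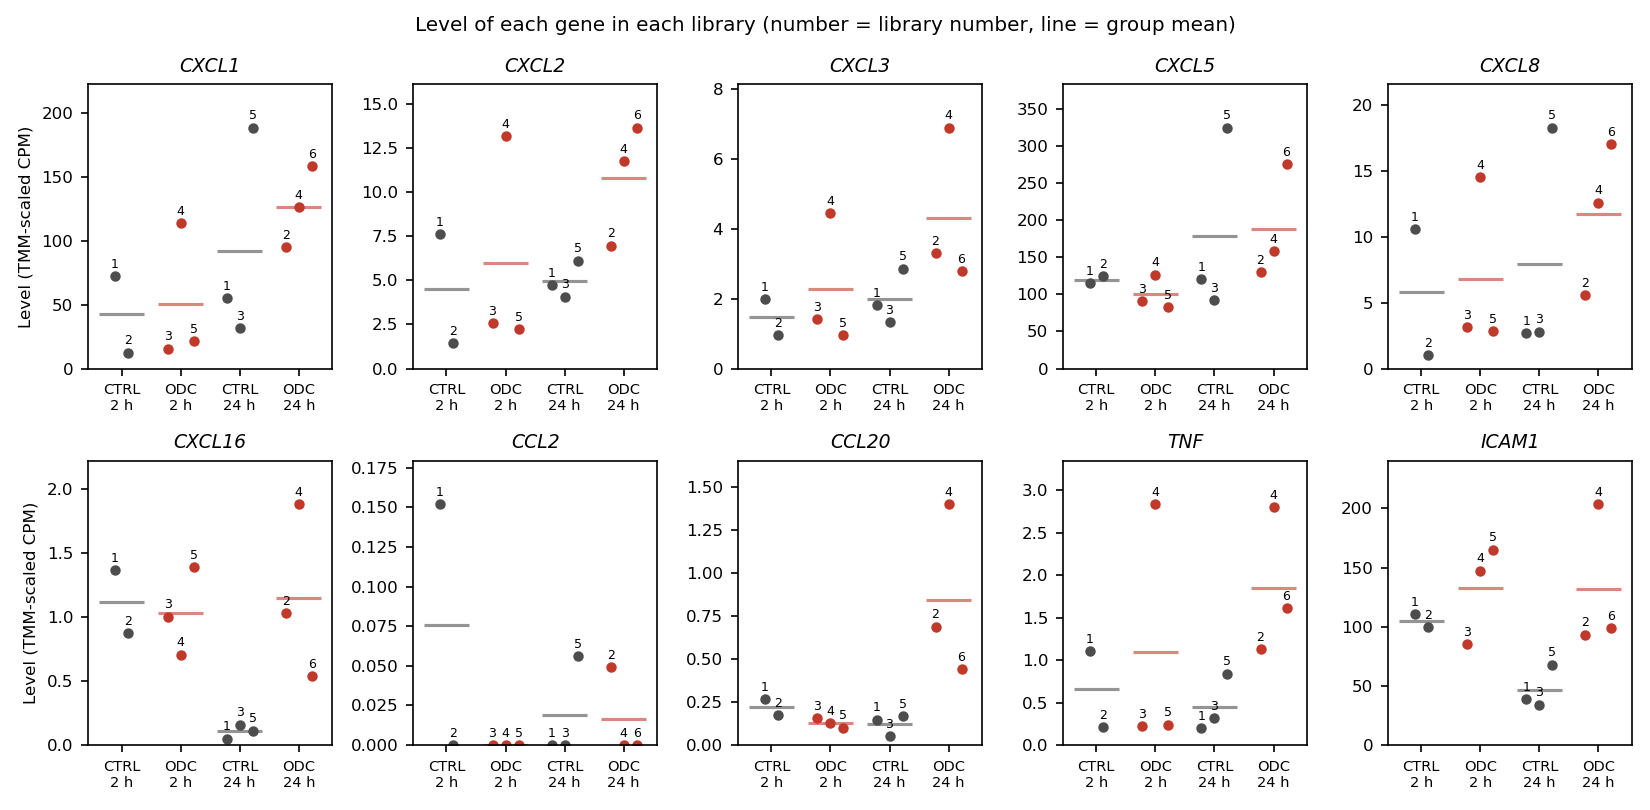
Level of each of the 10 genes in each of the 11 libraries, in CPM scaled by trimmed mean of M-values (TMM) factors (vertical axis, linear, from 0 in each panel), by group (horizontal axis). Points carry the library number and lines mark group means. At 24 h the ODC points of CXCL2, CXCL16, CCL20, TNF and ICAM1 lie above all CTRL points, while CTRL library 5 is the highest of all 11 for CXCL1, CXCL5 and CXCL8.

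At 24 h, 8 of the 10 genes had enough counts to be tested. All 8, beside 50.1% of all genes tested, had a higher fitted level in ODC than in CTRL cells. None passed the rule of an adjusted p under 0.05 with a change of at least 2-fold (edgeR quasi-likelihood test, Benjamini-Hochberg over 12689 genes), which 21 genes, or 0.165%, passed. The members' adjusted p ranged from 0.107 to 0.968. At an unadjusted p under 0.05 with at least 2-fold, 5 of the 8 were higher (CXCL2, CXCL3, CXCL16, TNF and ICAM1), against 1.77% of all genes tested in that direction. CXCL16 and TNF passed the filter on low counts only through the ODC libraries, where they were high, so the counts and medians that hold them are descriptions. With at least 10 counts required in every library, which leaves both out, 3 of 6 met the rule and the median was 0.85. Over the 8 the median log2 fold change was 1.13, and over all genes 0.00089. Every ODC library lay above every CTRL library for 4 of the 8 (CXCL2, CXCL16, TNF and ICAM1), as for 8.5% of all genes tested. The number at the unadjusted rule was 8 of 9 without CTRL library 5, with a median of 1.88. Those 9 include CXCL16, TNF and CCL20, which passed the filter only through ODC libraries. The share of all genes at the unadjusted rule was not counted for this setting or for the 3 of 6. Without ODC library 6, CXCL16 was among 53 of 12836 genes that passed the adjusted rule (adjusted p = 0.0437, edgeR). By DESeq2, 4 of the 8 passed the adjusted rule: ICAM1 (adjusted p = 4.806e-04), CXCL16 (0.00633), CXCL2 (0.00766) and TNF (0.0417). That method called 145 of 12689 genes.

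CXCL1 levels at 24 h were 55.2, 31.8 and 188 CPM in CTRL libraries 1, 3 and 5 and 94.7, 126 and 158 CPM in ODC libraries 2, 4 and 6. A single CTRL library stood above all ODC libraries, and the other 2 CTRL libraries stood below all of them. The log2 fold change was 0.48 (standard error (SE) 0.57, adjusted p = 0.803), with a 95% interval from -0.83 to 1.79. It was 1.55 without CTRL library 5 (unadjusted p = 9.942e-04, adjusted p = 0.127, edgeR). Leaving out CTRL library 3 gave 0.068, CTRL library 1 gave 0.20 and ODC library 6 gave 0.29.

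CXCL8, the chemokine first known as interleukin-8, had a similar order of libraries. Its CTRL levels were 2.69, 2.81 and 18.3 CPM, and its ODC levels 5.55, 12.6 and 17.0 CPM. CTRL library 5 was again the highest of the 6 and the other CTRL libraries the lowest. The log2 fold change was 0.59 (SE 0.74, adjusted p = 0.817), with an interval from -1.12 to 2.29, and 2.11 without CTRL library 5 (adjusted p = 0.168, edgeR). Removing ODC library 2 gave 0.92, and it fell to 0.16, 0.18 and 0.23 when CTRL library 1, CTRL library 3 or ODC library 6 was removed.

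CXCL5 stood at 120, 92.0 and 325 CPM in CTRL and at 130, 158 and 275 CPM in ODC libraries. The groups overlapped, with CTRL library 5 and ODC library 6 far above the other 4. The log2 fold change was 0.08 (SE 0.47, adjusted p = 0.968), with an interval from -1 to 1.17. It turned to -0.29 without ODC library 6, and leaving out CTRL library 3 or 1 gave -0.23 and -0.14. Leaving out CTRL library 5 gave 0.84.

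CXCL2 was the neutrophil chemokine gene whose groups did not overlap. Its CTRL levels were 4.74, 4.08 and 6.11 CPM, and its ODC levels 6.98, 11.8 and 13.7 CPM. The log2 fold change was 1.13 (SE 0.27, unadjusted p = 0.0033, adjusted p = 0.158, edgeR), with an interval from 0.50 to 1.77. Without ODC library 6 it was 0.94, under 2-fold. With adjacent library numbers treated as pairs, its adjusted p was 0.0308, although the labels do not give such pairs. In the fit of all 11 libraries the unadjusted p of CXCL2 at 24 h was 0.124 and the adjusted p 0.483 (edgeR).

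CXCL3 stood at 1.81, 1.32 and 2.86 CPM in CTRL and 3.29, 6.89 and 2.78 CPM in ODC libraries. ODC was higher in 8 of the 9 pairs of an ODC and a CTRL library, ODC library 6 lying just under CTRL library 5. The log2 fold change was 1.13 (SE 0.42, unadjusted p = 0.0285, adjusted p = 0.329, edgeR). It was 0.61 without ODC library 4, and its unadjusted p was above 0.05 without that library and without CTRL library 1 or 3.

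CXCL16 differs from the other CXC members in that it is made as a membrane-bound protein with a chemokine domain, which the proteases ADAM10 and ADAM17 can release, and its receptor is CXCR6. Its counts at 24 h were few, and it passed the filter only through its ODC libraries. CTRL libraries 1, 3 and 5 held 1, 3 and 2 counts, and ODC libraries 2, 4 and 6 held 21, 35 and 11 counts. Pooled over libraries, the ratio of the ODC to the CTRL rate was 10.8 (exact Clopper-Pearson 95% interval 4.69 to 30.3, counting error only). The fitted log2 fold change was 3.38 (SE 0.67, unadjusted p = 9.589e-04, adjusted p = 0.107, edgeR), and 2.83 to 3.77 with single libraries left out. With adjacent libraries as pairs its adjusted p was 0.0165.

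CCL20 attracts CCR6-bearing lymphocytes and dendritic cells, and CCL2 attracts monocytes through CCR2. Neither passed the filter on low counts at 24 h. CCL20 held 3, 1 and 3 counts in CTRL and 14, 26 and 9 counts in ODC libraries. All ODC libraries were above all CTRL libraries, as for 8.5% of all genes tested. The pooled ratio of CCL20 was 6.74 (exact 95% interval 3.04 to 17.6, counting error only). Without the filter, its log2 fold change was 2.72 (SE 0.64, unadjusted p = 0.00148, adjusted p = 0.111, edgeR). In the fit of all 11 libraries it passed the filter only through the 24 h ODC libraries (adjusted p at 24 h 0.0451, edgeR), so that value is given as a description. CCL2 was at 0, 0 and 1 counts in CTRL and 1, 0 and 0 counts in ODC libraries, so a difference was not detectable at this depth.

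TNF transcripts were low but their groups were apart. CTRL libraries held 4, 6 and 15 counts, or 0.195, 0.318 and 0.841 CPM. ODC libraries held 23, 52 and 33 counts, or 1.13, 2.80 and 1.61 CPM. Here too CTRL library 5 was the highest of its group, below all ODC libraries. This gave a log2 fold change of 2.06 (SE 0.56, unadjusted p = 0.00607, adjusted p = 0.191, edgeR), with an interval from 0.77 to 3.34. It was 2.84 without CTRL library 5. TNF passed the filter on low counts only through its ODC libraries, so these fitted values are descriptions. In the fit of all 11 libraries the unadjusted p of TNF at 24 h was 0.0632 and the adjusted p 0.37 (edgeR).

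ICAM1, the endothelial and epithelial ligand of the leukocyte integrins LFA-1 and Mac-1, was the most abundant member whose groups did not overlap. CTRL libraries stood at 38.6, 34.0 and 67.9 CPM and ODC libraries at 93.2, 203 and 99.0 CPM. ODC library 4 was the highest by far, and it was also the highest for CXCL3, CXCL16, CCL20 and TNF. Between groups the log2 fold change was 1.51 (SE 0.36, unadjusted p = 0.00324, adjusted p = 0.157, edgeR), with an interval from 0.67 to 2.35, and 1.04 without ODC library 4.

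**Figure D2:**
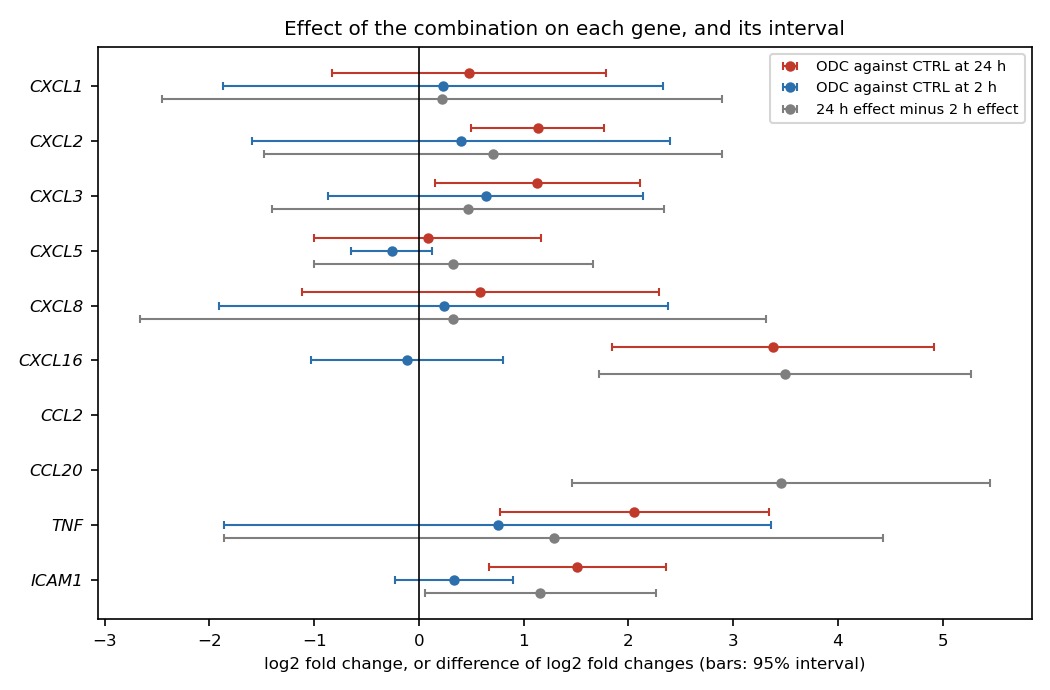
Log2 fold change of ODC against CTRL at 24 h (red) and at 2 h (blue), and the difference of both (grey), on the horizontal axis for each gene tested, with 95% intervals as bars. At 24 h the intervals of CXCL2, CXCL3, CXCL16, TNF and ICAM1 lie above 0, and at 2 h all intervals include 0. CXCL16 and TNF passed the filter on low counts at 24 h only through ODC libraries. CCL2 passed the filter on low counts in none of these fits, and CCL20 only in that of the difference.

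At 2 h no member was called, and neither was any other gene by the adjusted rule (0% of 13332 genes, edgeR). The unadjusted rule with at least 2-fold held for 0 of the 8 tested members, beside 0.308% of all genes in either direction. No tested member had an unadjusted p under 0.05, beside 312 genes, or 2.34%, of all tested. DESeq2 called 1 gene of the table, no member. Fitted levels were higher in ODC for 6 of the 8, beside 48.2% of all genes tested, and lower for CXCL5 and CXCL16. The median log2 fold change was 0.29, and over all genes -0.0060. The groups were apart for 0 of the 8 tested members, beside 15.2% of all genes tested. With 8 members, counts of 0 cannot be told apart from these shares. The lowest unadjusted p of a member was 0.156 (CXCL5).

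In each group at 2 h, 1 library was high for most of these genes. CXCL1 stood at 72.4 and 12.5 CPM in CTRL libraries 1 and 2 and at 15.6, 113 and 21.2 CPM in ODC libraries 3, 4 and 5. CXCL8 stood at 10.6 and 1.02 CPM in CTRL and 3.14, 14.5 and 2.82 CPM in ODC. CTRL library 1 and ODC library 4 thus exceeded the other 3 for both genes. The same 2 libraries were the highest for CXCL2, at 7.64 and 1.44 CPM in CTRL and 2.58, 13.2 and 2.24 CPM in ODC. They were also the highest for CXCL3, at 1.98 and 0.947 CPM in CTRL and 1.41, 4.44 and 0.95 CPM in ODC. TNF stood at 29 and 6 counts in CTRL and 7, 88 and 7 counts in ODC libraries. TNF was thus at similar counts in ODC libraries 3 and 5 and CTRL library 2. The log2 fold changes of these 5 genes were 0.23 for CXCL1, 0.24 for CXCL8, 0.40 for CXCL2, 0.64 for CXCL3 and 0.75 for TNF, with SE of 0.91, 0.93, 0.87, 0.65 and 1.13. Their 95% intervals reached from -1.87 to 2.33 for CXCL1 and from -1.86 to 3.36 for TNF. For CXCL1, TNF, CXCL2 (-1.59 to 2.40) and CXCL8 (-1.91 to 2.38), changes of 2-fold in either direction were not detectable with these libraries. The CXCL3 interval, from -0.87 to 2.14, held a 2-fold rise but not a 2-fold fall. Without ODC library 4 the value of CXCL1 was -1.21, and without CTRL library 1 it was 2.00. TNF had 2.37 without CTRL library 1 and 0.00065 without CTRL library 2, and it did not pass the filter without ODC library 4. Without CTRL library 1, CXCL8 had 2.75. Leaving out CTRL library 1 or 2 left a single control library, so those values are effect sizes only.

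The other 2 h members did not follow those 2 libraries. CXCL5 stood at 115 and 124 CPM in CTRL and 90.9, 126 and 82.7 CPM in ODC, a log2 fold change of -0.26 (SE 0.17, interval -0.65 to 0.12). ICAM1 stood at 111 and 99.4 CPM in CTRL and 85.4, 147 and 165 CPM in ODC, a log2 fold change of 0.34 (SE 0.24, interval -0.23 to 0.90). Its level was highest in ODC library 5. CXCL16 held 36 and 25 counts in CTRL and 32, 22 and 41 counts in ODC, a log2 fold change of -0.12 (SE 0.40, interval -1.03 to 0.80). CCL20 held 7 and 5 counts in CTRL and 5, 4 and 3 counts in ODC. After scaling, all ODC libraries (0.102 to 0.157 CPM) lay below both CTRL libraries (0.175 and 0.266 CPM). These counts are few, and groups were apart in either direction for 15.2% of all genes tested at 2 h. CCL20 did not pass the filter at 2 h. Without the filter its log2 fold change was -0.73 (SE 0.87, unadjusted p = 0.414, adjusted p = 0.999, edgeR). CCL2 had 4 counts in CTRL library 1 and 0 in the other 4. That library also had a count in 16840 genes, against 15761 to 15973 in the others. The fibroblast markers DCN (73 counts) and LUM (65 counts) and the endothelial marker VWF (13 counts) had their highest counts of any library there. Whether these and the CCL2 counts come from the same source was not tested.

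**Figure D3:**
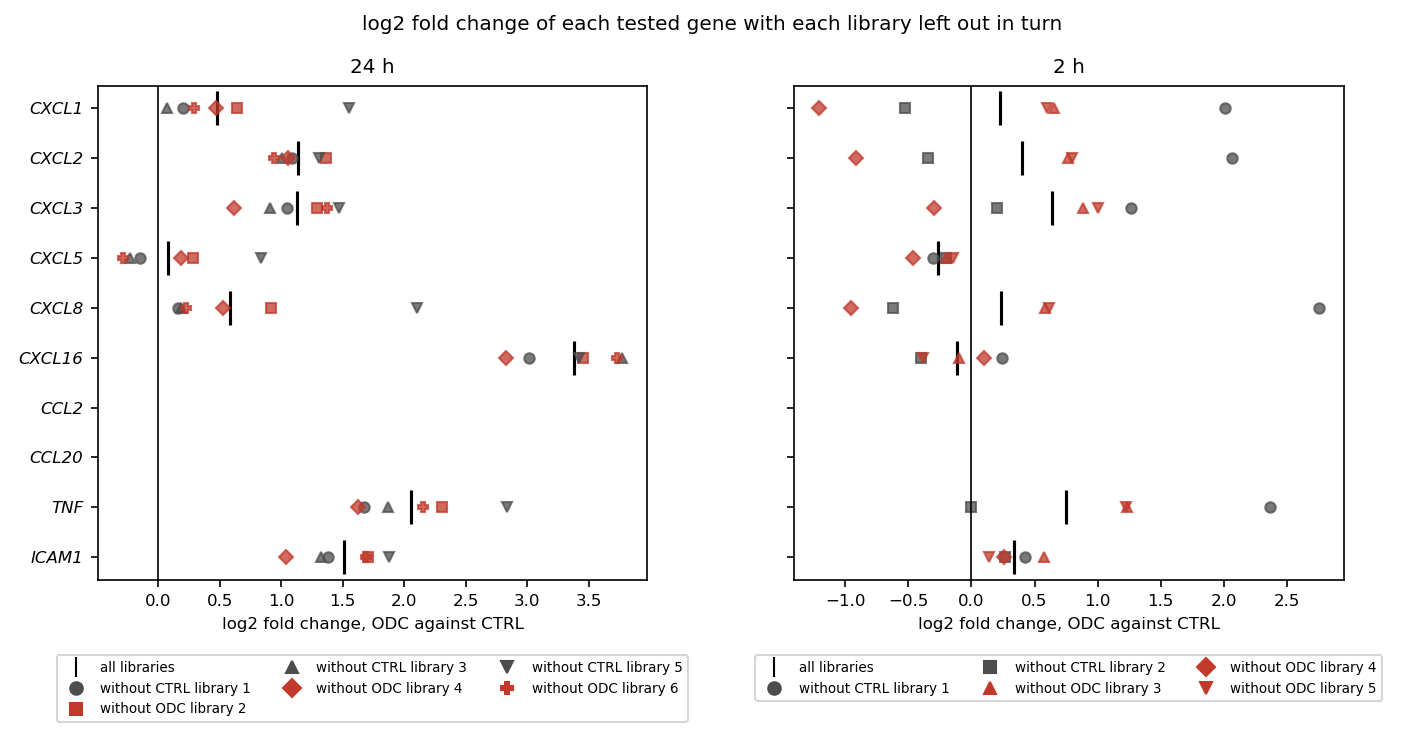
Log2 fold change of ODC against CTRL (horizontal axis) for each gene tested, at 24 h (left) and 2 h (right), from all libraries (black bars) and after removal of single libraries (grey symbols for a CTRL and red for an ODC library). At 24 h CXCL1, CXCL5, CXCL8 and TNF each make their largest move without CTRL library 5, and at 2 h CXCL1, CXCL2, CXCL3 and CXCL8 fall below 0 without ODC library 4. Grey symbols at 2 h rest on a single control library.

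The spread inside groups was wide for these genes at both times. At 2 h the within-group SD of CXCL8 was 1.71 on the log2 CPM scale, that of TNF 1.73, of CXCL1 1.62 and of CXCL2 1.49, each larger than in 99.9% of the genes tested, whose median was 0.154. At 24 h the SD of CXCL8 was 1.25 and that of CXCL1 0.96, larger than in 99.7% and 99% of genes, against a median of 0.191. CXCL2, which had the narrowest spread of the 8 at 24 h (SD 0.41), was still above 86.5% of genes. CXCL5 was the member closest to the rest of the genes at 2 h, with an SD of 0.27, above 76.5%. These shares do not take account of the level of a gene. TNF passed the 2 h filter on low counts only through CTRL library 1 and ODC library 4, where it was high. Its SD and rank at 2 h are therefore descriptions.

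**Figure D4:**
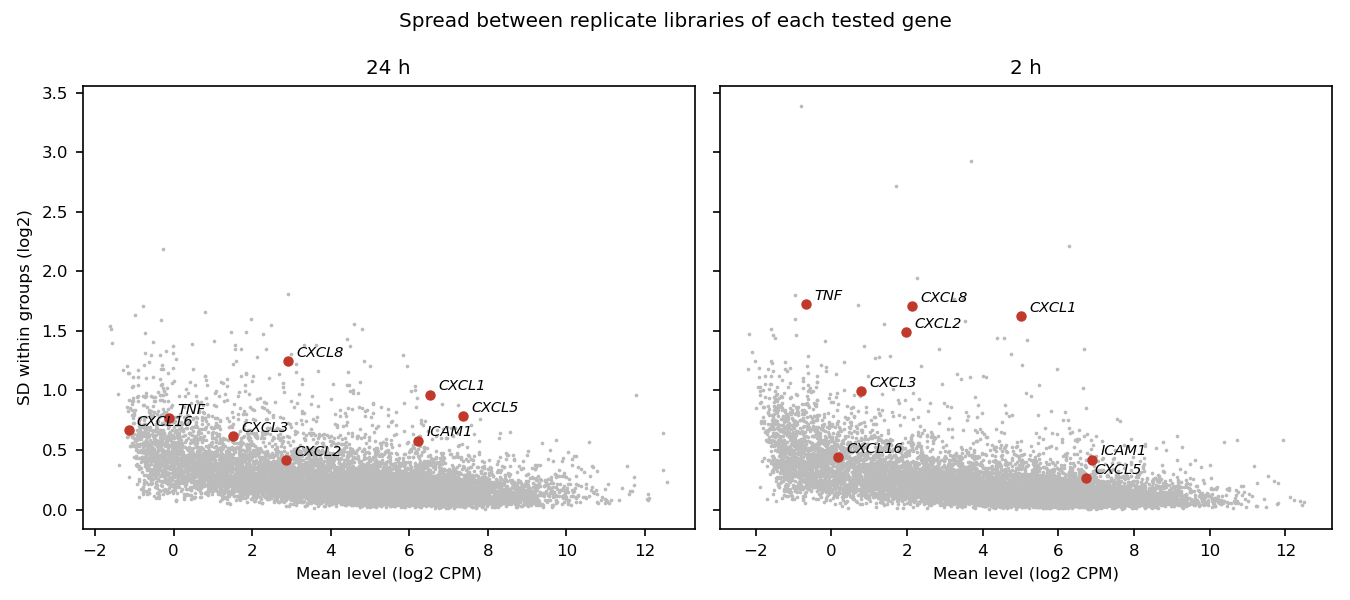
Within-group SD of log2 CPM (vertical axis) against mean log2 CPM (horizontal axis) for every gene tested (grey) and the 8 members tested (red), at 24 h and 2 h. At 2 h TNF, CXCL8, CXCL1 and CXCL2, with SD between 1.49 and 1.73, lie at the upper edge of genes of their level. TNF passed the 2 h filter only through CTRL library 1 and ODC library 4, where it was high.

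The test of whether the effect differed between 24 h and 2 h covered 9 members in a fit of all 11 libraries. No member passed an adjusted p under 0.05, as 2 genes, or 0.015%, did. An unadjusted p under 0.05 was found for CXCL16, CCL20 and ICAM1, against 5.93% of all genes tested. The fitted difference was positive for all 9, as for 50.4% of all genes. CCL20 passed the filter of this fit only through the 24 h ODC libraries. For CXCL16 the log2 fold change was larger at 24 h by 3.49 (SE 0.81, unadjusted p = 0.0011, adjusted p = 0.490, edgeR). For CCL20 the difference was 3.45 (SE 0.91, adjusted p = 0.518), and for ICAM1 1.16 (SE 0.50, adjusted p = 0.809). The unadjusted p of ICAM1 was 0.0409 (edgeR), and 0.0750 by DESeq2. By edgeR it was 0.123 without 24 h ODC library 4 and 0.0239 without 24 h ODC library 2, so it depended on single libraries. For CXCL1 and CXCL8 the differences were 0.22 and 0.33 with SE of 1.22 and 1.37. Their sign, and that of CXCL2, CXCL3, CXCL5 and TNF, turned when single libraries were left out. By a likelihood ratio test CXCL16 passed, with an adjusted p of 0.0143.

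The 3 genes with the lowest p differed in where their levels lay across both times. CXCL16 stood between 0.537 and 1.88 CPM in 24 h ODC libraries, a range that holds the 0.708 to 1.39 CPM of all 2 h libraries, and between 0.0488 and 0.159 CPM in 24 h CTRL libraries. ICAM1 stood between 34.0 and 67.9 CPM in 24 h CTRL libraries, below the 99.4 and 111 CPM of the 2 h CTRL libraries. Its 24 h ODC levels, 93.2 to 203 CPM, overlapped the 85.4 to 165 CPM seen in ODC at 2 h. CCL20 was different, its 24 h ODC levels of 0.439 to 1.40 CPM lying above the 0.102 to 0.266 CPM of all 2 h libraries. The 2 h and 24 h libraries carry different month labels in their titles, so exposure time and this label cannot be told apart in levels set across the times.

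**Figure D5:**
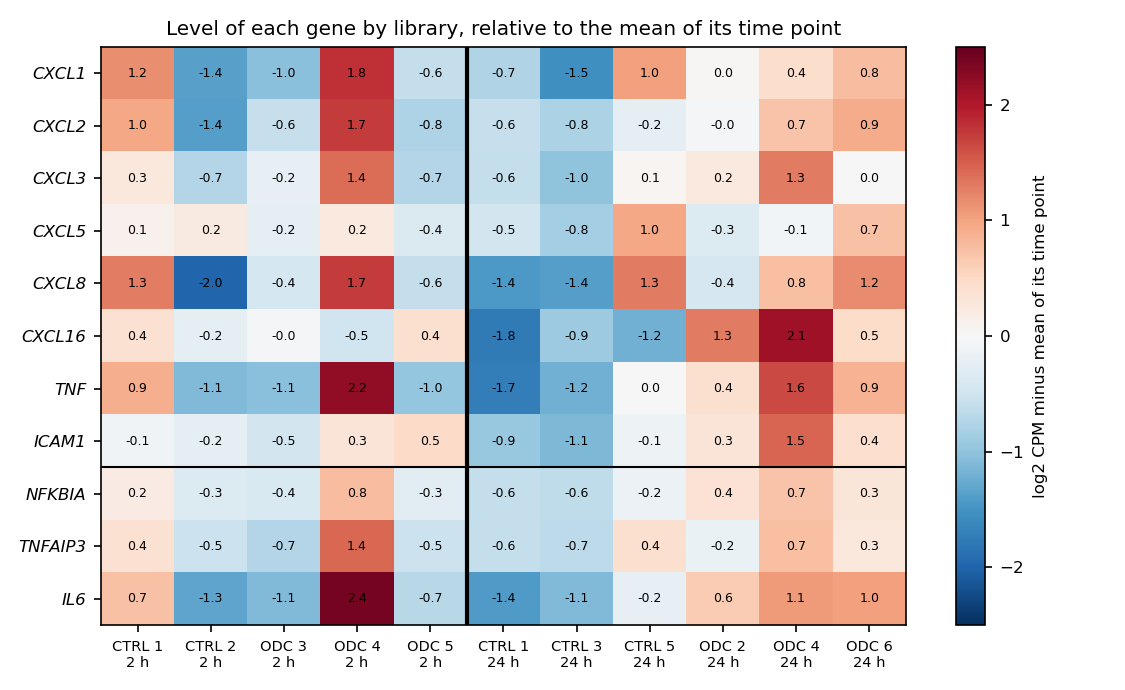
Log2 CPM of the 8 members tested at both times and of NFKBIA, TNFAIP3 and IL6, each minus its mean over the libraries of the same time, by library (columns). Colour and printed value give the difference. CTRL library 1 and ODC library 4 at 2 h, and ODC libraries 4 and 6 at 24 h, are above the mean for all or nearly all genes shown. CXCL5 and CXCL16 depart most from the common pattern.

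The members shared a profile over libraries to unequal degrees. After centring on each time, the correlation with the members' mean standardised profile over the 11 libraries, to which each contributes, was 0.965 for TNF, 0.906 for CXCL3 and CXCL8, 0.905 for CXCL1 and 0.890 for CXCL2 (Pearson, a description). It was 0.795 for ICAM1, 0.589 for CXCL5 and 0.550 for CXCL16. Of all other genes, the highest values were those of NFKBIA (0.949), IL6 (0.933), TNFAIP3 (0.911), VNN1 (0.897) and TPM3P9 (0.895). NFKBIA and TNFAIP3 encode inhibitors of NF-kB signalling, and IL6 a cytokine. IL6 stood at 18.4 and 4.35 CPM in CTRL and 5.06, 57.9 and 6.75 CPM in ODC at 2 h, with the same 2 libraries high. At 24 h it stood at 18.9, 23.6 and 43.6 CPM in CTRL and 78.0, 106 and 103 CPM in ODC. VNN1 had at most 31 counts in a library. The points of these correlations share their libraries and depth.

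Other genes of the chemokine and TNF systems were counted from lists. At neither time did a listed gene reach an adjusted p under 0.05. Of the whole 24 h table, 12.2% had an unadjusted p under 0.05 and 50.1% a higher fitted level in ODC, which is the background for the counts below. Of 14 other CXC, CX3C and XC ligands, 9 had no count in any 24 h library and 2 were tested. One of these was CX3CL1, like CXCL16 a membrane-anchored chemokine, at 2.19 ± 0.577 CPM in CTRL and 7.02 ± 3.93 CPM in ODC at 24 h (SD, n = 3). Its log2 fold change was 1.70 (SE 0.42, unadjusted p = 0.00366, adjusted p = 0.163, edgeR), and 0.32 (SE 0.11) at 2 h, where it stood at 22.4 ± 1.10 and 28.1 ± 1.57 CPM. None of 22 other CC ligands could be tested at either time. Of 27 chemokine receptors, 23 were in the tables and none could be tested, 22 of them having 3 counts or fewer in every 24 h library. Both sheddases were tested, and ADAM17 had a log2 fold change of 0.32 at 24 h (SE 0.099, adjusted p = 0.256, edgeR).

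On the TNF side, 13 of 16 tested receptors and adaptors had a higher fitted level in ODC at 24 h, and 5 of them an unadjusted p under 0.05, all higher, beside 50.1% and 12.2% of all genes. The median log2 fold change of the 16 was 0.33. TRAF1, an adaptor of the TNF receptors, stood at 3.58 ± 4.08 CPM in CTRL and 24.2 ± 5.85 CPM in ODC, a log2 fold change of 2.79 (SE 0.69, adjusted p = 0.163, edgeR). BIRC3, a ubiquitin ligase of the receptor complex, stood at 33.0 ± 15.9 and 72.8 ± 10.6 CPM, a log2 fold change of 1.16. TNFRSF9 was at 0.535 ± 0.343 and 1.52 ± 0.623 CPM. Of 7 tested TNF superfamily ligands, 4 were higher and 3 lower, with an unadjusted p under 0.05 for CD70 (log2 fold change 0.36) and TNFSF9 (0.38). No gene of these lists had an unadjusted p under 0.05 at 2 h.

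Among 15 tested NF-kB feedback and subunit genes, 14 had a higher fitted level in ODC at 24 h and 7 an unadjusted p under 0.05, all higher, with a median log2 fold change of 0.44 (50.1% and 12.2% of all genes). NFKBIA stood at 32.6 ± 6.31 CPM in CTRL and 61.3 ± 9.49 CPM in ODC, a log2 fold change of 0.93 (SE 0.17, adjusted p = 0.0983, edgeR). NFKB2 had 0.80 (SE 0.18) and RELB 1.26 (SE 0.32). At 2 h, 13 of 15 were higher and 2 had an unadjusted p under 0.05, beside 48.2% and 2.34% of all genes, BCL3 with a log2 fold change of 0.43 (SE 0.12) and RELB with 0.54 (SE 0.18). The 9 regulators of AU-rich mRNAs, a class of unstable transcripts that includes several chemokine mRNAs, had a median of 0.05 at 24 h. Of these, ZC3H12A, the ribonuclease Regnase-1, had 0.60 (SE 0.19, adjusted p = 0.264, edgeR).

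Of 12 tested genes of the IL1 and Toll-like receptor inputs, 6 were higher and 6 lower at 24 h. IL6, listed here, had a log2 fold change of 1.75 (SE 0.29, adjusted p = 0.0859, edgeR), while IL18 had -0.82 (SE 0.27) and IRAK4 -0.43 (SE 0.13). Of 9 tested adhesion molecules other than ICAM1, 6 were higher and 3 lower, with an unadjusted p under 0.05 for MCAM (1.24, SE 0.37) and the integrin subunit gene ITGAM (1.58, SE 0.50), the latter also listed as a leukocyte marker. This is 2 of 9, beside 12.2% of all genes. ITGAM had at most 19 counts in a library. Of the renal carcinoma markers, KRT18 had -0.71 (SE 0.15) and KRT8 -0.62 (SE 0.17) at 24 h, and EPCAM -1.66 (SE 0.58) at 2 h. EPCAM was at 2.30 ± 2.12 CPM in 2 CTRL libraries at 2 h and at 0.724 ± 0.125 CPM in ODC. Its groups overlapped, and CTRL library 1 alone stood high, at 3.80 CPM.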

How the data were processed

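RNA was isolated with a column kit, and libraries were made with a stranded mRNA kit and sequenced as 100 bp single-end reads. The authors aligned reads to hg38 with STAR (2.7.0f per the submitters' processing notes) and deposited raw counts per gene from HTSeq 0.9.1; the strand setting is not given in the sources used here. The deposited counts were used without change. Genes were tested in each count table with the edgeR 4.0.16 quasi-likelihood F test (TMM scaling, filterByExpr with a minimum count of 10 and total of 15, two-sided), with Benjamini-Hochberg adjustment over all genes tested. The SE is the log2 fold change divided by the square root of F. The difference between times came from 1 fit of the 11 libraries. CPM values use total counts times TMM factors computed over the 11 libraries, and log2 CPM a prior count of 2. DESeq2 1.42.0, a likelihood ratio test, other filters and scalings, the fit of all libraries, pairs of adjacent library numbers and leaving out each library were alternatives. Tests were checked on simulated counts. Members and gene lists were chosen with earlier results of these data known. Named were all members, of each list up to 3 genes with the lowest unadjusted p under 0.05 at each time, and the 5 genes most like the members' profile. Replicates differed beyond sampling noise (chi-square per gene 18.7 to 58). Gene positions are from GENCODE release 44, and promoters from RefSeq. A marker gene is not reported here.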

Additional observations from a re-analysis of the deposited data

How the results depend on the processing

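At 24 h the number of members passing the adjusted 2-fold rule was 0 under the other filters and scalings, 4 by DESeq2, 4 by the likelihood ratio test, 2 in the fit of all 11 libraries (CXCL16 and CCL20, the latter past the filter only through the 24 h ODC libraries) and 2 with adjacent libraries as a replicate block (CXCL16 and CXCL2). Correlations of the deviations within those 3 pairs were 0.197, 0.581 and 0.443. The block rests on library numbers alone, and over all genes it moved the number called from 21 to 176. DESeq2 called 145 genes, the likelihood ratio test 186 and the joint fit 95. In the 24 h fits by DESeq2, the likelihood ratio test and the block, CXCL16 passed the filter only through ODC libraries. The same holds for TNF, among the 4 called by DESeq2 and by the likelihood ratio test. The unadjusted 2-fold count was 3 with at least 10 counts required in every library, which removed CXCL16 and TNF from the test, and 3 in the joint fit (CXCL16, CCL20 and ICAM1). The difference between times was called for 1 member (CXCL16) by the likelihood ratio test.

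With single libraries left out, the adjusted count at 24 h was 0 to 1, the unadjusted count 4 to 8 and the median 0.83 to 1.88. Shares of all genes at the unadjusted rule were counted only for the main fits. At 2 h the unadjusted count was 0 with any ODC library left out, and the median was -0.46 to 1.63 over all removals. Fits without a 2 h CTRL library held a single 2 h control library, so they give effect sizes only. Log2 fold changes that turned sign ranged from -0.29 to 0.84 for CXCL5 at 24 h, and at 2 h from -1.21 to 2.00 for CXCL1, -0.91 to 2.06 for CXCL2, -0.30 to 1.26 for CXCL3, -0.95 to 2.75 for CXCL8 and -0.40 to 0.24 for CXCL16. Differences between times ranged from -1.54 to 1.67 for CXCL1, -0.94 to 2.03 for CXCL2, -0.15 to 1.41 for CXCL3, -0.052 to 1.08 for CXCL5, -2.17 to 1.85 for CXCL8 and -0.31 to 3.53 for TNF. The cause was not tested. With 2 or 3 libraries a group and the spread above, 2-fold changes of CXCL1 or CXCL8 could not be resolved, and CCL2 was too low to compare.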
